A study of Mus musculus with 10 samples.

Results

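The first 2 h after GATA1 was switched on in G1ER cells were examined as regions of open chromatin that appeared in, or disappeared from, the ATAC-seq peak lists. Gained regions were those present in both 2 h lists and absent from both 0 h lists, and lost regions the reverse. Of 21392 regions merged over the 4 lists, 787 were gained, which is 3.68% of all merged regions, and 343 were lost, which is 1.60%. These shares are the background for every count of gained and lost regions given here. The 4 libraries are 4 of 10 in the series, which also holds 2 libraries at each of 6, 12 and 24 h.

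G1ER (G1E-ER4) is a subclone of the mouse Gata1-null erythroid line G1E. It constitutively expresses GATA1-ER, GATA1 joined to the ligand-binding domain of the estrogen receptor, so all libraries carry the transgene. The 0 h cells were untreated and the 2 h cells had received β-estradiol at 1e-07 M, and both grew in IMDM with serum, stem cell factor and erythropoietin. About 50000 cells were tagmented per library. Because the series holds no estradiol-treated cells without GATA1-ER, the estradiol itself and the activation of GATA1 cannot be told apart. Nothing in the labels says whether the 2 libraries of a time point came from separate cultures. The measured spread between them may therefore be technical.

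GATA1 is the zinc finger factor that drives erythroid maturation, and it binds short WGATAR-type sequences, often beside an E-box bound by TAL1 in a complex with LMO2 and LDB1. Immature cells occupy many of the same sites with GATA2, and the exchange of GATA2 for GATA1 is known as the GATA switch. Open chromatin in ATAC-seq marks promoters, enhancers and sites bound by CTCF, the factor that anchors chromatin loops and domain borders.

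The sequences of 9 regions show the letters on which the comparison of gained and lost regions turned. Each is the 200 bp at the midpoint of the region, on the plus strand of GRCm38 (mm10), taken from RefSeq. Capitals mark 3 kinds of match, read on either strand. The first is the GATA motif, which is AGATAA or the same letters with T in place of the first A. The second is the CTCF consensus. The third is the TAL1-GATA composite, which is CTG followed after 7 or 8 bases by the GATA motif and so always overlaps a GATA match. The first 3 gained regions are shown for their GATA matches and the next pair for CTCF. Of the lost regions, Cntn6 and Rgs13 are shown for GATA, and Gata2 and Bach1 for the composite.
Nck2, gained, chr1:43414250-43414449: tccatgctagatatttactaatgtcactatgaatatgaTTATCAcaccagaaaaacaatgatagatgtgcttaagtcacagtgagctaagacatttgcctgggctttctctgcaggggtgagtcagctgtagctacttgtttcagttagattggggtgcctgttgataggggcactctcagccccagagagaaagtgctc
Dis3l2 intron, gained, chr1:86916521-86916720: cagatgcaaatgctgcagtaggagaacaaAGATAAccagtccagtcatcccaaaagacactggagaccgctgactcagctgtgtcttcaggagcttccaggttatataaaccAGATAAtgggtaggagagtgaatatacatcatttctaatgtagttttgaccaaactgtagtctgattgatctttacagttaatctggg
Uros intron, gained, chr7:133698033-133698232: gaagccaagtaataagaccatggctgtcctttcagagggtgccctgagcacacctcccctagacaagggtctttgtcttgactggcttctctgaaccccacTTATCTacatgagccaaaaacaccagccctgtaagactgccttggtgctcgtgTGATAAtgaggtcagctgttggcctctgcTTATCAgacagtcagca
Eif4b, gained, chr15:102065771-102065970: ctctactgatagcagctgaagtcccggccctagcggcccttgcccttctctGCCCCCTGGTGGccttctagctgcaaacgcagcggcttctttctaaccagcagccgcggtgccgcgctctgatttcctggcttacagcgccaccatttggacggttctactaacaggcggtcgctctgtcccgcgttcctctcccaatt
Wdr34 intron, gained, chr2:30042597-30042796: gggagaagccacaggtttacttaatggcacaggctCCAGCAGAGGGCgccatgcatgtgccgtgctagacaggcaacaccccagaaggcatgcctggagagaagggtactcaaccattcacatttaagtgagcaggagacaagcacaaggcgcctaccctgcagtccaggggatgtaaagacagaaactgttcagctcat
Cntn6 intron, lost, chr6:104808535-104808734: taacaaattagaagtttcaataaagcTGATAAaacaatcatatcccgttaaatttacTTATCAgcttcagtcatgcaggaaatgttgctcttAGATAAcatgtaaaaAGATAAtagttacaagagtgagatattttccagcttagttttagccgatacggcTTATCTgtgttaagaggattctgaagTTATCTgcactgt
Rgs13, lost, chr1:144185013-144185212: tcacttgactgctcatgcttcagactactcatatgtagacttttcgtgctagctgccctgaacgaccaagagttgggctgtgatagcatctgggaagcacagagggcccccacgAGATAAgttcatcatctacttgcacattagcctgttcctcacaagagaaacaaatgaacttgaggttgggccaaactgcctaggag
Gata2, lost, chr6:88190608-88190807: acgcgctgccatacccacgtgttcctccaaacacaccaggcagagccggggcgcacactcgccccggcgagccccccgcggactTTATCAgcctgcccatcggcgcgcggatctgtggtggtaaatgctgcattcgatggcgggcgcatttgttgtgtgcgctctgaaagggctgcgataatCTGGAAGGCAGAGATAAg
Bach1 intron, lost, chr16:87707364-87707563: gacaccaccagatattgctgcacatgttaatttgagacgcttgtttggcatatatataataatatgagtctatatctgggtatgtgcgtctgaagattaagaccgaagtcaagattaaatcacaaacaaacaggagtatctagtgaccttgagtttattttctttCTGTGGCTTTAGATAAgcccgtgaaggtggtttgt

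In these letters the Cntn6 intron held 6 GATA matches, more than any other sequence printed, and it carried no composite. The Uros intron held 3, and the Dis3l2 intron 2. The composite lay near the edge of the printed window in Gata2, upstream of the gene for the factor that GATA1 replaces. Across all merged regions of the same length, 27.0% held a GATA match, 4.30% a CTCF match and 5.67% a composite, so a single match is common.

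The label of the cells was checked at the promoters of marker genes, taking a peak within 1 kb of a start. The promoters of Kit (the stem cell factor receptor), Nfe2 (a globin regulator), Zfpm1 (the GATA1 cofactor FOG1) and Tfrc (the transferrin receptor) were listed in all 4 libraries. Of 10 progenitor and erythroid markers, 7 and 6 were listed at 0 h and 7 and 4 at 2 h. Gata2 and Tal1 themselves had no summit within 1 kb of a start in any of the 4 lists. Of 17 markers of other cell types, 2 and 2 were listed at 0 h and 1 and 0 at 2 h, and only Syp and Col1a1 were among them.

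The 0 h lists held 15256 and 11697 peaks and the 2 h lists 16113 and 14272, on chromosomes 1 to 19 and X. The means were 13476 ± 2517 and 15192 ± 1302 (SD, n = 2 each), and the difference of 1716 did not exceed the spread between libraries (two-sided exact permutation test, p = 0.667, where 2 against 2 libraries cannot give less than 0.3333). Without the second 0 h library it was -63.5. The share of peaks within 1 kb of a protein-coding start was 52.9% and 60.0% at 0 h against 51.1% and 54.0% at 2 h. The share with a GATA match was 23.9% and 22.6% against 23.4% and 23.9%. Neither share differed beyond the spread between libraries (exact permutation test, p = 0.667 for each, and 0.667 after Benjamini-Hochberg adjustment over the 3 measures). The difference in GATA share was 0.404 percentage points, and it was 1.02 or -0.209 without the first or second 0 h library.

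The gained and lost regions formed a small part of the disagreement among the 4 lists. All 4 libraries shared 8271 regions (38.7%). A further 1869 and 674 regions were listed only in the first or second 0 h library, and 2570 and 1623 only in the first or second 2 h library. The replicate number moved with the lists as well. Both libraries numbered 1 shared 1156 regions that neither library numbered 2 listed, against 293 in the opposite direction, and the longer list of each time point was the one numbered 1. With all 4 lists cut to the length of the shortest, 11697 peaks, 488 regions were gained and 477 lost, so the excess of gained over lost regions depended on list length. Leaving out either 0 h library gave 2192 and 1230 gained regions, and leaving out either 2 h library 2428 and 3391. The lost regions then numbered 1030, 2230, 922 and 911 in the same order.

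**Figure D1:**
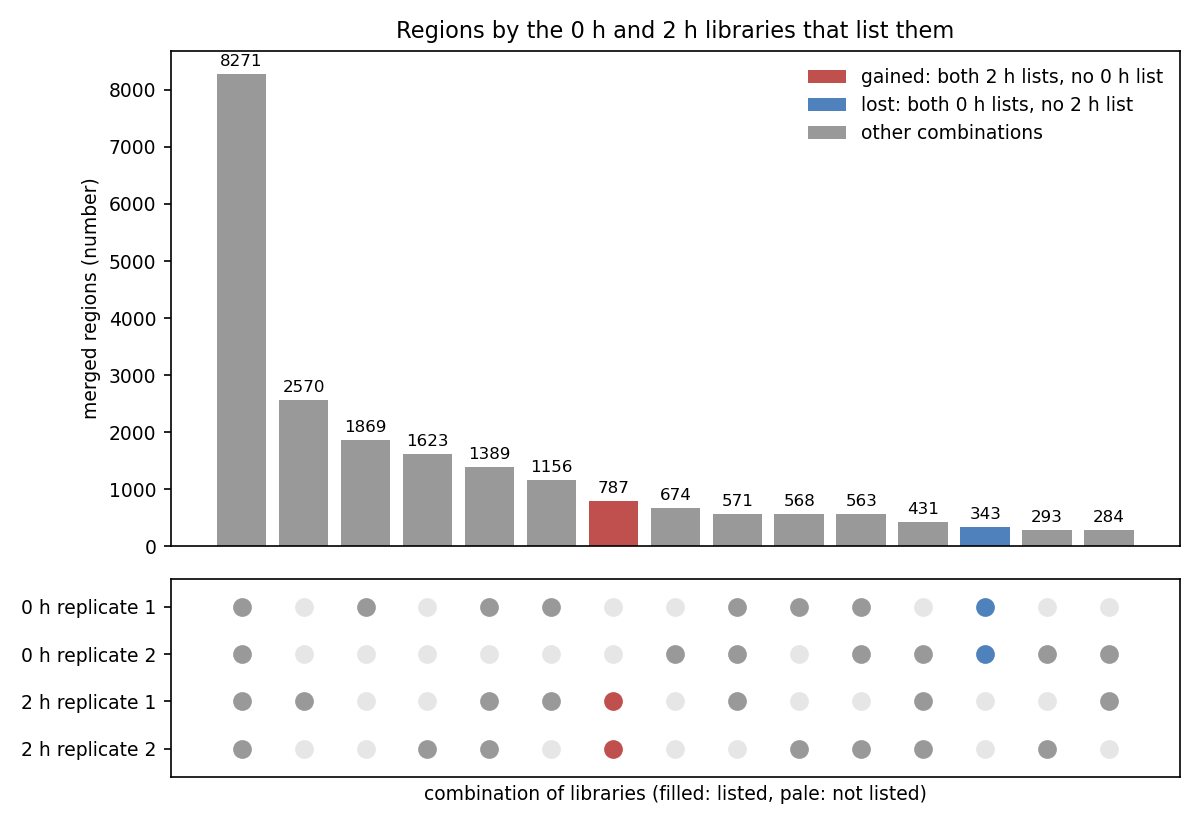
Number of merged regions (vertical axis) for each of the 15 combinations of 0 h and 2 h libraries that listed them, with filled circles below for the libraries that did. The 787 gained regions (red) and 343 lost regions (blue) were fewer than the 1156 regions shared only by the 2 libraries numbered 1.

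Gained and lost regions were among the weaker entries of the lists. The score of a peak is −log10 of its q-value, and its rank percentile within its own list runs up to 100 for the strongest peak. The median percentile of the gained regions was 31.8 in the first 2 h library and 25.1 in the second. For lost regions it was 27.8 and 22.9 in the 0 h libraries. Regions listed in all 4 libraries had medians of 62.9 to 72.0. Only 42 gained and 11 lost regions stood above the 50th percentile in both of their libraries, so most of the members lay in the lower part of each list.

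Regions just outside the rule had somewhat higher ranks than the gained and lost regions of the same library. A total of 1389 regions missed being gained because the first 0 h library alone also listed them, with a median percentile of 38.4 there, and 431 because the second alone did, with a median of 28.6. Correspondingly, 571 and 563 regions missed being lost through the first or second 2 h library alone, with medians of 39.6 and 39.7. A region missing from a list was only not called there, and some signal may have been present below the threshold. In addition, 55 gained regions (6.99%) and 23 lost regions (6.71%) had a summit of the other time point within 1 kb, the nearest at 502 and 505 bp, beyond the distance at which the windows merged.

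Most gained and lost regions lay away from promoters. Within 1 kb of a protein-coding start were 171 of the 787 gained regions (21.7%) and 81 of the 343 lost regions (23.6%), against 5803 of the 8271 regions listed in all 4 libraries (70.2%) and 42.0% of all merged regions. As a measure of spread, each 2 h library was also compared with each 0 h library alone. These 4 comparisons share libraries and so are not independent. They gave a promoter share of 24.6% ± 2.14 for regions in the 2 h list only and 27.0% ± 2.79 for regions in the 0 h list only (SD, n = 4 comparisons), and these ranges overlapped. The gained and lost regions were therefore alike in their promoter share and both unlike the shared regions, which are part of the 42.0% for all merged regions. Regions that differed in a single-library comparison had shares near theirs. A low promoter share was thus not particular to regions that met the rule in both libraries. Without the first 0 h library the gained share was 34.2%, and without the second 2 h library the lost share was 35.7%.

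The median distance to the nearest start was 12453 bp for gained and 15219 bp for lost regions, against 134 bp for regions in all 4 libraries. Introns held 42.1% of the gained and 35.6% of the lost regions, and intergenic sequence 33.5% and 37.9%. The groups parted at the greatest distances. Of the lost regions, 52 (15.2%) were over 100 kb from any protein-coding start, against 41 gained regions (5.21%) and 5.76% of all merged regions. The single-library comparisons gave 9.12% ± 1.49 for lost and 6.56% ± 1.85 for gained regions at this distance, with ranges of 7.30% to 10.6% and 4.72% to 8.79% that overlapped.

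**Figure D2:**
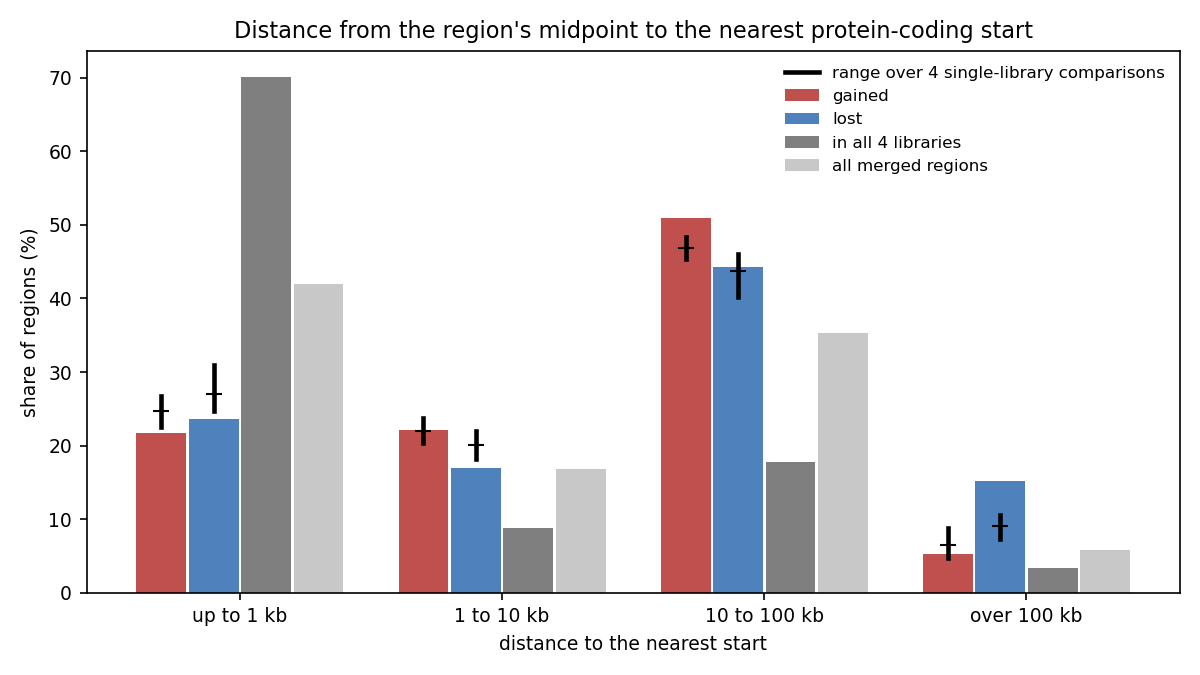
Share of regions (vertical axis, %) in 4 bins of distance from the region's midpoint to the nearest protein-coding start, for gained, lost, shared and all merged regions. Black bars give the range and the tick the mean over 4 single-library comparisons. The 10 to 100 kb bin held the most gained and lost regions (51.0% and 44.3%), and the bin up to 1 kb the most regions listed in all 4 libraries (70.2%).

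A GATA match was present in 277 gained regions (35.2%) and 159 lost regions (46.4%), against 27.0% of all merged regions and 18.99% of the regions in all 4 libraries. Since 5237 of the 5767 merged regions with a match lay more than 1 kb from a start, the shares were taken again over such distal regions. Among these distal regions, 255 of 616 gained regions (41.4%) held a GATA match, close to the 42.2% of all distal merged regions. Among lost distal regions the share was 57.6% (151 of 262), above that background and near the 53.2% of distal regions in all 4 libraries. The single-library comparisons gave 30.6% ± 1.10 for gained and 33.7% ± 1.99 for lost regions of any distance, with ranges of 29.4% to 32.0% and 31.4% to 35.7% that overlapped. With 1 library left out in turn, the gained share ran from 31.0% to 32.6% and the lost share from 33.1% to 40.4%. The lost share was nearest to the gained share without the second 0 h library, at 33.1% against 32.6%.

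The TAL1-GATA composite, the sequence on which GATA factors and TAL1 bind together, was held by 44 lost regions (12.8%) and by 41 gained regions (5.21%), against 5.67% of all merged regions. Among distal regions the shares were 16.4% for lost, 6.17% for gained, 15.3% for regions in all 4 libraries and 9.08% for all merged regions. The 4 single-library comparisons gave 7.28% ± 1.04 for lost and 4.90% ± 0.476 for gained regions, with ranges of 6.26% to 8.29% and 4.34% to 5.48% that did not overlap. The share in lost distal regions was thus close to that in shared distal regions. Over regions of any distance, 8.54% of lost and 6.30% of gained regions held the composite without the first 0 h library. Without the second 0 h library the shares were 5.92% and 5.85%, so the difference was not seen in that setting. There a lost region needed only the first 0 h list, while a gained region still needed both lists of its time point. The ranges above come from 4 comparisons that share libraries, so they do not settle whether the difference holds without the second 0 h library. With lists of equal length, 11.7% of lost and 7.79% of gained regions held the composite.

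CTCF matches went the other way. They were found in 79 gained regions (10.0%) and 13 lost regions (3.79%), against 4.30% of all merged regions and 1.17% of the regions in all 4 libraries. Among distal regions the shares were 12.2% for gained, 4.58% for lost, 2.39% for regions in all 4 libraries and 6.72% for all merged regions. The single-library comparisons gave 7.03% ± 0.643 for gained and 4.40% ± 0.798 for lost regions, with ranges of 6.39% to 7.84% and 3.35% to 5.06% that did not overlap. With lists of equal length, 6.56% of gained and 2.31% of lost regions held a CTCF match. The gained share was 6.57% without the first 0 h library, and the lost share was 5.83% without the second 0 h and 2.41% without the second 2 h library. The gained share stayed above the lost share in each of these settings.

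AP-1 sites (TGANTCA), bound by Fos and Jun factors, were in 44 lost regions (12.8%) and 62 gained regions (7.88%), against 6.44% of all merged regions. Among distal regions the shares were 15.6% for lost, 8.93% for gained, 8.55% for regions in all 4 libraries and 9.33% for all merged regions. Over regions of any distance the single-library comparisons overlapped, at 8.04% ± 0.635 for lost and 7.71% ± 0.214 for gained regions. RUNX sites (TGTGGT) were equally frequent in both, at 18.2% and 18.1%. The motifs typical of promoters were less frequent in gained and lost regions than in shared ones. ETS sites (CCGGAA) were in 6.23% of gained, 7.87% of lost and 20.9% of the regions in all 4 libraries, and KLF sites (CCNCNCCC) in 28.2%, 26.8% and 52.0%. No gained or lost region held a full estrogen response element, and only 4 of all merged regions did.

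**Figure D3:**
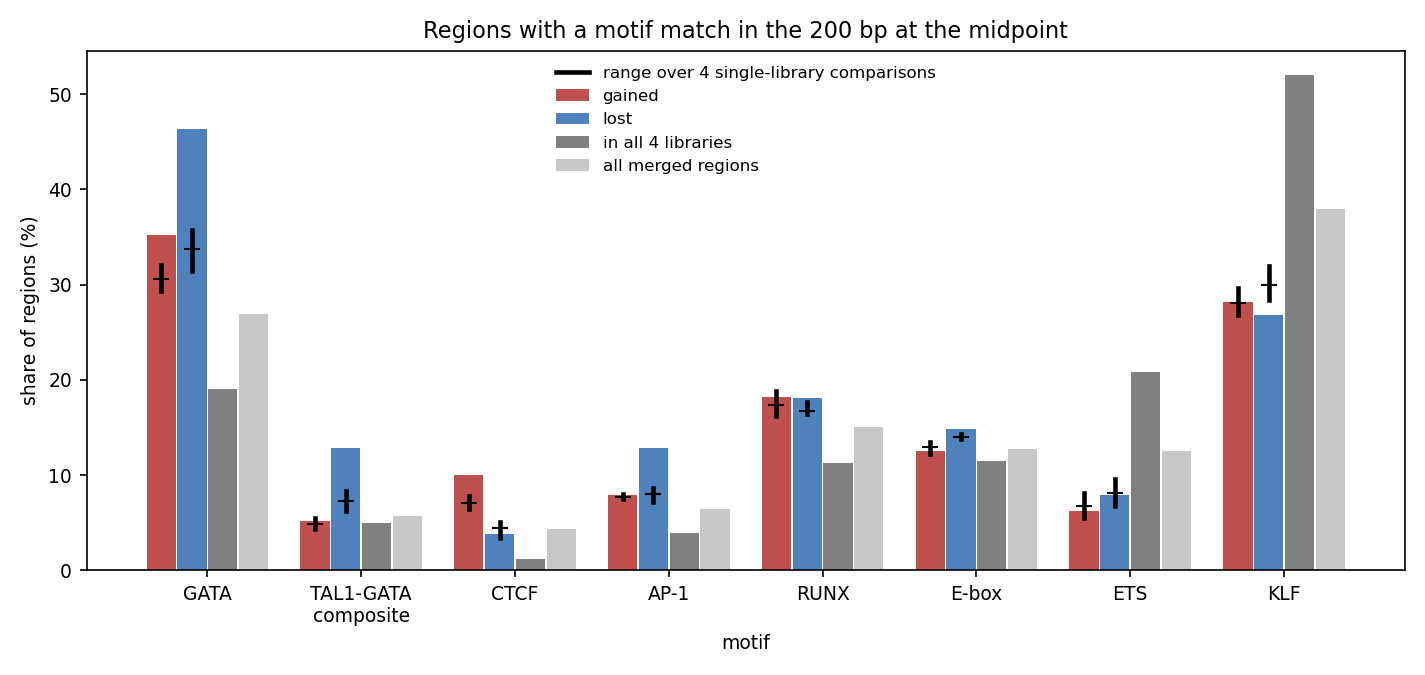
Share of regions (vertical axis, %) with a match to each of 8 motifs in the 200 bp at the midpoint, for gained, lost, shared and all merged regions. Black bars give the range and the tick the mean over 4 single-library comparisons. Lost regions had the higher GATA and composite shares (46.4% and 12.8%) and gained regions the higher CTCF share (10.0%).

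The 6 libraries of 6, 12 and 24 h had no part in choosing the regions and were used to ask whether gained regions were still listed later and lost regions still absent. The 6 h libraries listed 40.7% and 71.7% of the gained regions, the 12 h libraries 50.1% and 42.3%, and the 24 h libraries 47.9% and 26.9%. For lost regions the shares were 29.7% and 65.3%, 40.5% and 30.9%, and 32.9% and 17.5%. In each later library the gained regions were listed more often than the lost regions, by 10.4 ± 2.83 percentage points on average (SD, n = 6 libraries, higher in 6 of 6). This was significant in an exact permutation test that swapped signs within libraries (two-sided p = 0.031, the smallest that 6 libraries allow, adjusted p = 0.0469 over the 3 sets of regions tested). Of all merged regions the later libraries listed 46.1% to 74.1%, more than of the gained regions in 6 of 6 libraries, and of the regions in all 4 early libraries 85.7% to 99.0%. Gained regions were thus listed later less often than the merged regions at large, of which 8271 (38.7%) were those in all 4 early libraries. These shared regions raise the background, and the remaining merged regions were not counted separately.

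That test covers the spread of the later libraries for one fixed set of regions. It does not cover a repeat of the first 2 h, and it counts the libraries of a time point as separate units. With the 3 later time points as units the p was 0.25, the smallest that 3 allow, so the call did not hold (exact permutation test). Gained regions also had higher ranks than lost regions, and among regions whose lower percentile was 10 to 30 the difference was 5.87 percentage points. With windows of 100 bp on each side it was 6.07. With the libraries numbered 1 alone the difference was 0.529 percentage points (positive in 3 of 6 later libraries, exact permutation p = 0.6875), and with those numbered 2 alone it was 5.26 (6 of 6, p = 0.031). With lists of equal length as well, replicate 1 alone gave -0.869. Leaving out the first or second 2 h library gave -22.4 and -22.1, where gained regions rested on 1 list and lost regions on 2. Leaving out the first or second 0 h library gave 36.4 and 30.04, where this was the other way round. Over all regions the excess was thus present with both libraries of each time or with replicate 2, and not with replicate 1.

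The difference was found away from promoters. Among distal regions 43.2% of gained and 29.1% of lost regions were listed on average, a difference of 14.0 ± 2.68 percentage points (6 of 6 libraries, exact permutation p = 0.031, adjusted 0.0469). This test has the same limits as that over all regions, since it counts the libraries of a time point as separate units. The distal difference was not tested with time points as units or matched for rank. Replicate 1 alone gave 3.27 and replicate 2 alone 5.69 for distal regions, both positive in 6 of 6 libraries. Among promoter regions the averages were 59.0% and 58.8%, a difference of 0.119 ± 7.99 that was positive in 3 of 6 libraries (exact permutation p = 1). The distal difference exceeded the promoter difference in 6 of 6 libraries, by 13.9 ± 8.33 percentage points, a comparison made after the values were seen and so given without a test.

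**Figure D4:**
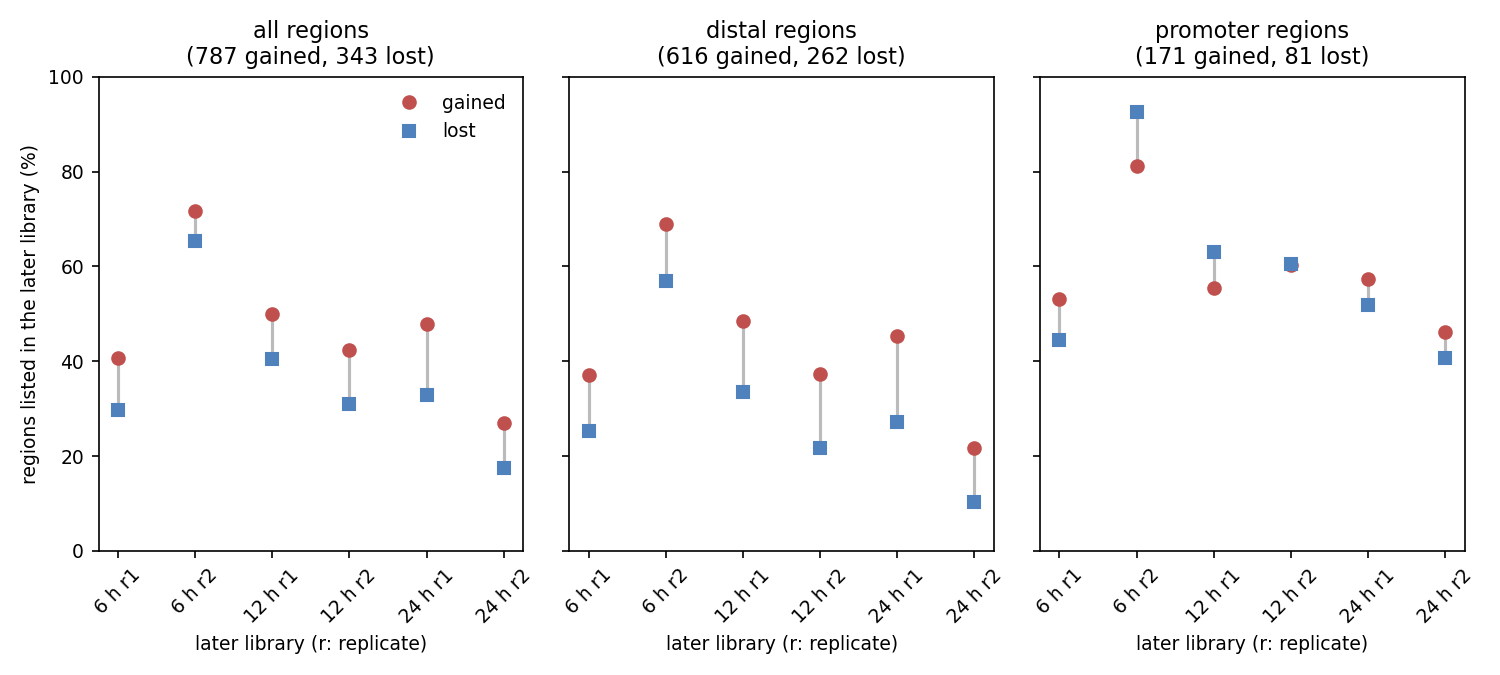
Share of gained (red circles) and lost (blue squares) regions listed in each of the 6 later libraries (vertical axis, %), for all, distal and promoter regions, with a grey line joining the pair of each library. Gained distal regions lay above lost distal regions in 6 of 6 libraries (means 43.2% and 29.1%), and the promoter regions crossed.

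Counted by region, 77 gained regions were in none of the later libraries and 52 in all 6, while 61 lost regions stayed out of all 6 and 9 were listed again in each of them. Both 24 h libraries listed 138 gained regions (17.5%) and 36 lost regions (10.5%). Neither listed 336 (42.7%) and 206 (60.1%). A larger share of lost than of gained regions was thus absent from both 24 h lists (60.1% and 42.7%), and a smaller share was in both (10.5% and 17.5%). Absence at 24 h was not separated from list length. The first 24 h list held 15570 peaks and listed 59.3% of all merged regions, and the second held 10697 and listed 46.1%.

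Lost regions that stayed absent differed in place and letters from those that came back, described here without a test. The 143 lost regions listed in 0 or 1 later library had a GATA match in 64.3% of cases and lay near a promoter in 4.90%. The 40 that returned in 5 or 6 libraries had one in 22.5% and were promoters in 60.0%. Among distal lost regions alone the GATA shares were 66.2% (90 of 136), 49.1% (54 of 110) for those in 2 to 4 libraries, and 43.8% (7 of 16), and the last group is too small to place firmly. Gained regions held GATA matches in 38.3% of the 214 listed in 0 or 1 later library and in 38.4% of the 151 listed in 5 or 6, and in 32.5% of the 422 between. Over distal gained regions the shares were 42.2% (81 of 192), 37.4% (123 of 329) and 53.7% (51 of 95) from the least to the most often listed, with no steady order. Their median percentile at 2 h, taken as the lower of the pair, was 12.0 in the least and 25.9 in the most often listed group. The gained regions listed most often later were thus also the stronger ones at 2 h. Their promoter shares were 10.3%, 22.0% and 37.1% from the least to the most often listed. For lost regions the median lower percentile at 0 h was 12.4, 13.1 and 18.5 in that order. The order in promoter share and rank was thus not particular to lost regions.

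The 10 gained regions with the highest ranks, judged by the lower of their percentiles, ran from 63.2 to 78.6. Of these 8 were distal, 7 held a GATA match, 6 were listed in at least 5 later libraries and none in fewer than 2. The 10 highest lost regions ran from 52.2 to 69.5. Of these 8 were distal and 9 held a GATA match, but 1 was listed in at least 5 later libraries and 4 in 0 or 1. A region is named by its nearest protein-coding gene, and which gene it acts on was not measured.

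The highest gained region lay 7.90 kb upstream of Eif4b, which encodes a translation initiation factor, and held the CTCF match printed above. Its scores at 2 h were 10.1 and 12.6, and 5 of the 6 later libraries listed it. Next came a region 31.4 kb upstream of Nck2, an adaptor of tyrosine kinase signalling, with a GATA match, scores of 10.2 and 12.0 and a place in all 6 later lists. A region in an intron of Dis3l2, an RNA exonuclease gene, had its nearest start at Alppl2, 173 kb away, and scores of 11.1 and 10.4. It too was in all 6 later lists, as was a region in an intron of the sphingomyelin synthase gene Sgms1 with scores of 9.52 and 9.49. Of these 4 regions only that near Eif4b was missing from a later list.

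The other regions of this group were in introns of Susd6, Eif2s1 (the α subunit of initiation factor eIF2) and Wdr34, 5.71 kb upstream of the chemokine receptor gene Ccr3, and at the Nipsnap2 promoter. Their scores ran from 8.32 to 9.92 in the first and from 8.94 to 9.74 in the second 2 h library, and the sequence at Wdr34 held a CTCF match. The Nipsnap2 region had a 0 h summit only 507 bp away. The remaining region, at Gm10722 near the start of chromosome 9, was 100% repeat-masked.

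The highest lost region was in an intron of Erg, an ETS factor of blood stem cells and megakaryocytes, with scores of 10.96 and 9.60 at 0 h and a GATA match. A 2 h summit lay 600 bp from it, and 4 later libraries listed the region. The Cntn6 intron with the 6 GATA matches printed above had scores of 7.11 and 7.62 at 0 h and was in none of the later lists, with its nearest 2 h summit 139823 bp away. A region in an intron of Maml2, a coactivator of Notch signalling, had scores of 7.65 and 7.89 and returned in 3 later libraries.

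Others among the highest lost regions lay at the promoter of Cbx5, which encodes the heterochromatin protein HP1α, with scores of 9.11 and 7.16, and 7.74 kb upstream of Rgs13, a regulator of G protein signalling, with 7.93 and 6.98. The Cbx5 promoter was listed again in 5 later libraries and had a 2 h summit 532 bp away. The Rgs13 region was listed in 2. Regions near Ino80c, Mtx2, Galntl6 and Gm10717 were also among them, and those at Galntl6 and Gm10717 were 64.0% and 94.5% repeat-masked.

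**Figure D5:**
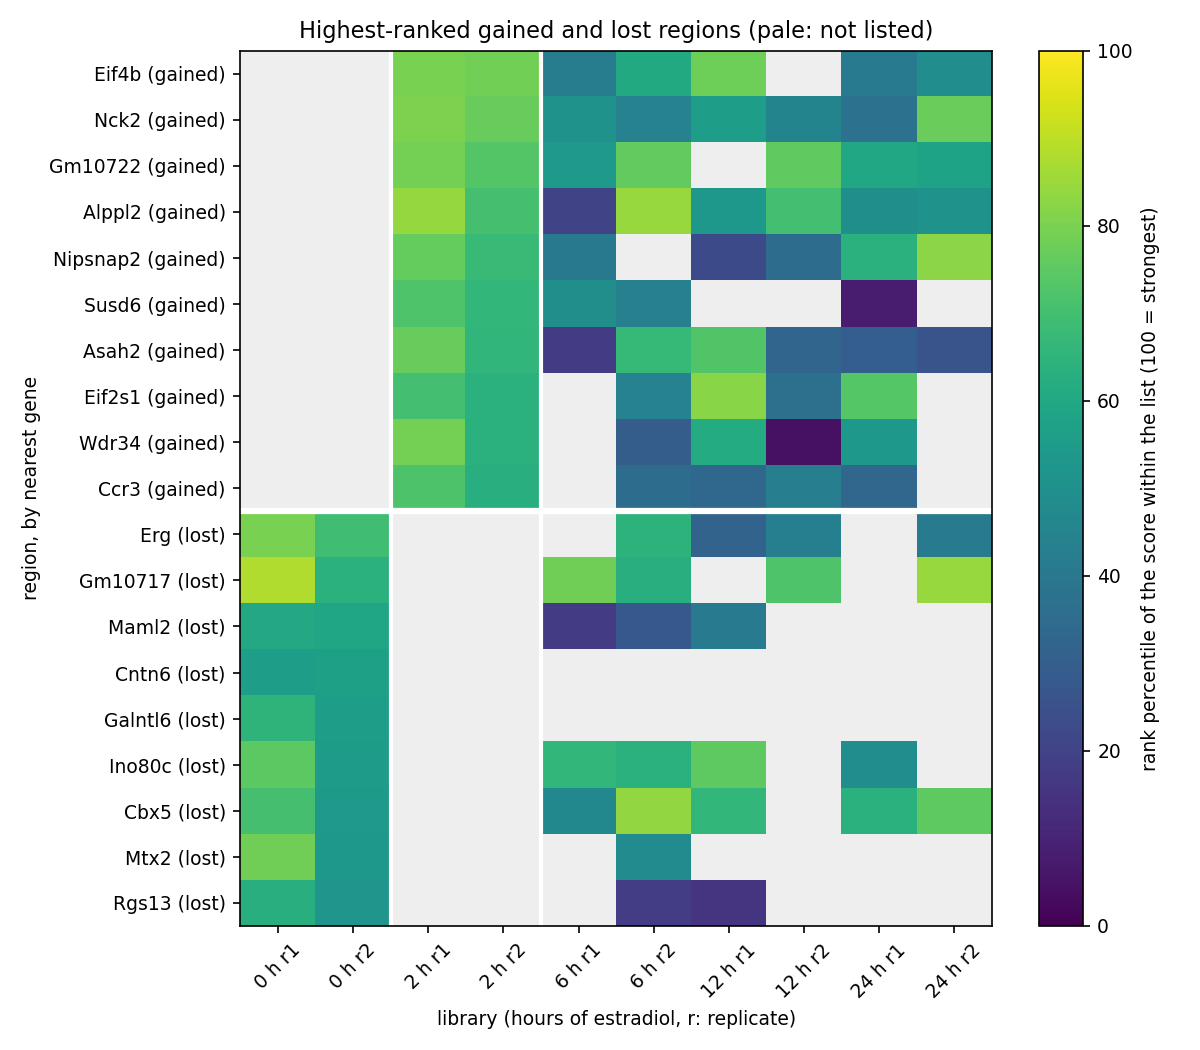
Rank percentile (colour, 100 for the strongest peak of a list) of the 10 highest gained regions and 9 of the 10 highest lost regions in all 10 libraries, with pale cells where the region was not listed. Nck2, Alppl2 and Asah2 were listed in all 6 later libraries, Cntn6 and Galntl6 in none.

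The genes whose promoters the study captured came to 22 activated and 19 repressed genes on the list used here, which is 1 short of the study's number of repressed promoters. They were picked in the study for their expression in this cell system and so are not an independent choice. Over all 21644 protein-coding genes, 3.44% were the nearest gene of a gained region and 1.54% of a lost region. Genes with more open regions have more chances, so the regions themselves were counted too. Of the 57 regions nearest to activated genes, 2 were gained (3.51%) and 2 lost (3.51%). Of the 71 regions nearest to repressed genes, 4 were gained (5.63%) and 3 lost (4.23%). These few regions were close to the background for gains and rest on 2 and 3 regions for losses.

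Among activated genes, Abcb10, a mitochondrial transporter needed for heme synthesis, gained an intronic region 4.10 kb from its start with scores of 6.52 and 5.88, listed in all 6 later libraries. Plekho2 gained a region 1.08 kb upstream with a CTCF match and scores of 7.64 and 5.48. Bach1, a heme-sensing repressor, lost the intronic region printed above, whose 0 h scores were 2.73 and 4.49, and 2 later libraries listed it. The thiosulfate sulfurtransferase gene Tst lost its promoter region, with scores of 4.58 and 4.92, but 5 later libraries listed it. A 2 h summit lay 549 bp from this region. Only the Abcb10 change was thus found in each later list.

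Among repressed genes, Gata2 lost the region 3.18 kb upstream of its start, with scores of 6.33 and 2.997 at 0 h, and 2 later libraries listed it. The second of these scores was at the 5.40th percentile of its list, so this loss rested on a weak entry. A 2 h summit also lay 836 bp from the region. Etv5, an ETS factor, lost a region in an intron of Dgkg with scores of 7.15 and 4.21. Kit gained an intronic region 58.5 kb from its start with a GATA match and scores of 4.16 and 4.15. The mast cell receptor gene Il1rl1 gained one 49.3 kb upstream with scores of 7.72 and 6.94, listed in 5 later libraries. Gpr65, a proton-sensing receptor gene, gained an intronic region with scores of 4.35 and 3.47 that no later library listed. Rgs13 had the lost region described above and a gained one in its intron with scores of 5.40 and 2.76. Genes on the repressed list thus had regions of both kinds at 2 h.

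Near genes of erythroid function, the counts of gained and of lost regions were 0 to 3 per list. Of 21 heme and globin genes, Uros, an enzyme of heme synthesis, gained the intronic region printed above, with scores of 5.41 and 8.10. Hbb-bt, an adult β-globin gene, lost a region 4.34 kb away with scores of 4.97 and 4.31. Of the 40 regions near this list, 1 was gained (2.50%) and 1 lost (2.50%). None of 13 iron genes was nearest to a gained or lost region, among the 28 merged regions near them. Of 22 genes of the red cell surface and skeleton, none gained a region, and Ank1 (ankyrin), Kel (the Kell antigen) and Cd47 lost 1 each. The Ank1 region was at its promoter, with scores of 3.38 and 4.42, and 3 later libraries listed it again. Of the 73 regions near this list, these 3 were 4.11%, beside the 1.60% lost among all merged regions, and the share rests on 3 regions.

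Of 37 blood transcription factor genes, 5 were nearest to gained and 6 to lost regions, and of the 168 regions near them 6 were gained (3.57%) and 6 lost (3.57%). Gains were near Klf3 (a pair of regions), Myc, Runx1, Foxo3 and Cebpb. Those of Klf3, Myc, Runx1 and Cebpb lay over 100 kb from the start. The Myc region, 118 kb away with 2 GATA matches, had scores of 6.36 and 3.86 and was in 1 later list. The Foxo3 region, in an intron of this factor of late erythroid gene expression, had scores of 4.22 and 4.70 and was in 4.

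Losses were near Gata2, Tal1, Bach1, Myb, Erg and Cbfa2t3. The Myb region was at the promoter of this progenitor factor, with scores of 5.59 and 4.89, and a 2 h summit lay 727 bp from it. The Tal1 region lay in a coding exon of the neighbouring gene Stil, 18.0 kb upstream, with scores of 2.90 and 3.34. The Cbfa2t3 region, near the gene for the corepressor ETO2, had scores of 3.75 and 3.25 and was listed again in 5 later libraries. None of these losses other than that at Erg exceeded the 30th percentile in both 0 h lists.

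Other gene groups gave counts of 0 to 4. Mast cell genes numbered 3 of 19 near gained regions (Kit, Il1rl1 and Il13) and none near lost regions. Immediate early genes numbered 4 of 27 near gained (Fosb, Egr1, Ier5 and Dusp1) and 1 near lost regions (Fosl2). The highest of these was the region 39.9 kb from Ier5, with scores of 7.82 and 7.01. The megakaryocyte list had Itga2b near a gained and F2rl2 near a lost region, out of 17. Erythropoietin signalling had Sh2b3 near a gained region of 14 genes, cell cycle genes Ccnd2 and E2f2 of 21, and lost regions were nearest to Nrip1 of 11 estrogen receptor targets, Mcl1 of 14 survival genes and Atg7 of 15 autophagy genes. As shares of the regions near each list, gained regions were 8.11% for mast cell and 5.88% for immediate early genes. For the megakaryocyte, erythropoietin and cell cycle lists they were 2.50% to 4.76%, beside the 3.68% of all merged regions. Lost regions were 1.47% for immediate early genes and 2.94% to 4.76% for the survival, autophagy, estrogen receptor and megakaryocyte lists. Each of these lost shares rests on 1 region, beside the 1.60% lost among all merged regions. The mast cell, erythropoietin and cell cycle lists had no lost region.

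Most genes near gained regions, and most near lost regions, had a single region of that kind. St3gal1, a sialyltransferase gene, and Max, the dimer partner of Myc, each had 3 gained regions, the most of any gene, and 40 of the 745 genes near gained regions had 2 or more. The St3gal1 regions were all in its introns, with scores of 5.41 and 5.81, 10.6 and 4.59, and 5.66 and 3.82. Max also had 1 lost region, 128 kb upstream. Of the 333 genes near lost regions, 10 had 2, among them Car2 (carbonic anhydrase 2), Grb10 (an adaptor that damps growth factor receptors) and Utrn (utrophin). The more distant Car2 region, 111 kb from the start, held the composite, and its scores were 3.76 and 12.4 at 0 h. Genes near both a gained and a lost region numbered 40, among the 745 near gained and the 333 near lost regions. Over all protein-coding genes, 3.44% were nearest to a gained and 1.54% to a lost region. Genes with more open regions have more chances of both, and this overlap was not tested.

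Within 100 kb of the Mafk start 14 regions were merged, of which 4 were in all 4 libraries and 1 was gained. Mafk encodes a small Maf protein that pairs with NF-E2. The gained region lay 39.4 kb downstream of the start, nearest to Psmg3, with scores of 7.29 and 4.83 at 2 h and a place in 4 later lists, and it held no GATA match in its 200 bp. Around Gata2 11 regions were merged, 4 of them in all 4 libraries and only the upstream region lost. Around Kit 8 were merged, 2 of them shared and 1 gained. The Gata1 locus, whose own gene is inactive in these cells, had 7 regions, 5 of them shared and none gained or lost.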

How the data were processed

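ATAC-seq libraries of G1ER cells were grouped by time and replicate number as their titles give them. According to the methods, the authors trimmed adaptors, aligned reads to mm10 with Bowtie2, kept uniquely mapped tags and called peaks with MACS without a model. The submitters' processing notes name Bowtie 1.0.0, Picard, MACS2 and mm10, so the aligner version is not settled. The deposited values are −log10 q-values at 1-bp summits, called per library, with a lowest value of 1.30 over the 4 lists of 0 and 2 h. They give no read counts, so depth is unknown and no interval that needs it is given, and scores were compared only as ranks within a list. Whether reads were shifted for the Tn5 cut is not given in the sources used here.

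Summits on chromosomes 1 to 19 and X were extended by 250 bp on each side and merged over the 4 lists, and a later library listed a region when a summit lay within 250 bp of it. Each region was assigned to the nearest start of a protein-coding transcript (GENCODE M21, 41135 starts). Motifs were searched on both strands in 200 bp at the midpoint of GRCm38.p6, the same assembly as mm10. Motifs were matched as fixed letters. Tests were exact permutation tests over libraries, two-sided, and shares of regions carry the spread over 4 single-library comparisons. Scripts (Python 3.11.15, NumPy 2.4.6, SciPy 1.17.1, pysam 0.24.0) were tested on simulated lists.

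Named regions were the 10 highest of each kind by the lower of their percentiles, those nearest to genes of the lists, genes with several regions, and the Mafk, Gata2, Kit and Gata1 loci. The members and gene lists were chosen with earlier results of these data known. Alternatives were lists of equal length, windows of 100 and 500 bp, score minimums of 2 and 5, a promoter distance of 2 kb, 250 bp on each side of the midpoint for motifs, leaving out each library, later lists of equal length, distal regions only for the later lists, time points as units and a replicate block. The distal-only setting for motifs, the repeat-masked, rank-band and single-replicate settings, and those for CTCF and the composite, were added after the data were seen. One of the 10 highest lost regions is not reported here by name.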

Additional observations from a re-analysis of the deposited data

How the results depend on the processing

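Lists of equal length gave 488 gained and 477 lost regions. Leaving out 1 library gave 1230 (without 0 h replicate 2) to 3391 gained regions (without 2 h replicate 2), and 911 (without 2 h replicate 2) to 2230 lost regions (without 0 h replicate 2), because 1 list less had to agree. The replicate numbers mark no stated batch. With a replicate block the difference in peak number was again 1716 (exact permutation p = 0.5, the smallest that 2 pairs allow). With 1 library left out it ran from -63.5 (without 0 h replicate 2) to 3496 (without 0 h replicate 1). The GATA share of the lists differed by -0.209 (without 0 h replicate 2) to 1.02 points (without 0 h replicate 1) and by -0.103 with equal length.

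The promoter share of gained regions was 28.3% with equal length, 30.3% and 18.6% with windows of 100 and 500 bp, 26.0% at a promoter distance of 2 kb, and 17.2% to 34.2% with 1 library left out. For lost regions it was 32.9% with equal length, 34.3% with 100 bp, and 18.3% to 35.7% with 1 library left out. The GATA share of gained regions was 37.7% with equal length, 31.1% with 100 bp, 50.8% in 250 bp on each side of the midpoint, 41.4% over distal regions, and 31.0% to 32.6% with 1 library left out. For lost regions it was 41.7%, 41.6%, 59.2% and 57.6% in the same order, and 33.1% to 40.4%.

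The CTCF share of gained regions was 6.56% with equal length, 9.07% with 100 bp, 12.2% over distal regions, and 6.57% to 8.49% with 1 library left out. For lost regions it was 2.31% with equal length and 2.41% to 5.83% with 1 library left out. The composite share of gained regions was 7.79% with equal length, 6.17% over distal regions, and 3.83% to 6.30% with 1 library left out. For lost regions it was 11.7% with equal length, 11.6% with 100 bp, 16.4% over distal regions, and 5.92% to 11.1%.

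The excess of gained over lost regions in later lists was 10.4 points with the 3 later time points as units (exact permutation p = 0.25, the smallest possible). It was 0.529 for replicate 1 alone and -0.869 for replicate 1 alone with equal length. With 1 library left out it ran from -22.4 (without 2 h replicate 1) and -22.1 (without 2 h replicate 2) to 36.4 (without 0 h replicate 1), since a set then chosen on 1 list was compared with a set chosen on 2. It was 5.87 within lower percentiles of 10 to 30 and 6.07 with 100 bp, and 3.27 to 14.0 points in the remaining settings. Causes of the other changes were not tested. No depth is known, so weak signal in a library without a peak could not be measured.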
